A study of Mus musculus with 2 samples.

Results

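Lymphoid neogenesis is the formation of organised lymphocyte aggregates in an inflamed tissue, and the 10 genes described here encode its best known chemokines, the lymphotoxin and BAFF signals and the noncanonical NF-κB pathway that these signals drive. The members were listed by their roles, with the higher Cxcl13 value of the aged array already known, and were the chemokines Cxcl13 and Ccl19, the lymphotoxins Lta and Ltb with their receptor gene Ltbr, the B cell survival factor genes Tnfsf13b (BAFF) and Tnfsf13 (APRIL), and the NF-κB genes Relb, Nfkb2 and Map3k14. They were found by the gene name given to each probe, among 37007 gene names on the array. Of the 10, 9 had at least 1 probe under their own name, with 16 probes in all, and Tnfsf13 had none. The comparison asked whether the lymphotoxin and BAFF signals and the pathway genes moved with Cxcl13 in aged salivary gland epithelial cells.

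Salivary gland epithelial cells were isolated from the submandibular gland with magnetic beads that bind EpCAM, a surface protein of epithelial cells. The donors were female C57BL/6 mice (substrain C57BL/6N in the methods), aged 9 weeks (young) or 24 months (aged). No treatment or altered gene was named for either age. The methods do not state whether 1 mouse or several gave the RNA of an array. According to the methods, young and aged mice of this study came from different facilities, so that age and source cannot be told apart. RNA from each age was labelled with Cy3 and hybridised to 1 Agilent array of 60-base probes, both on 1 slide. With 1 array per age, no array difference below has a replicate check and no test was made. Separately, the paper reports significantly higher Cxcl13 mRNA in aged mice by real-time PCR of salivary gland epithelial cells, with several mice per group.

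Lymphotoxin, made mainly by lymphocytes, acts on the lymphotoxin β receptor of stromal and epithelial cells. There it stabilises the kinase NIK, the product of Map3k14, and NIK through IKKα starts the processing of the Nfkb2 product p100 to p52, which pairs with RelB and turns on chemokine genes such as Cxcl13, Ccl19 and Ccl21a. CXCL13 attracts cells that carry the receptor CXCR5, among them follicular B cells, and BAFF and APRIL keep B cells and plasma cells alive. In salivary glands this set of signals is best known from Sjögren's syndrome, in which B cell follicles form beside the ducts.

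Promoter sequences of the members were read from RefSeq (mouse GRCm38.p6) as the 250 bases before each annotated start. Promoters were given for 9 members, 12 in all because Nfkb2 had 3 and Tnfsf13b had 2, and the entry missing was that of Relb. The promoters of Cxcl13, Ltb and Nfkb2 (the first of 3) are shown because these members held a match to one of the motifs searched. Both strands were searched, and capitals mark the matches. The Cxcl13 promoter lies at chr5:95956689-95956938 (plus strand), that of Ltb at chr17:35194257-35194506 (plus strand) and the first of Nfkb2 at chr19:46304487-46304736 (plus strand).

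Promoters, 250 bases before the start, read 5′ to 3′:
Cxcl13 promoter: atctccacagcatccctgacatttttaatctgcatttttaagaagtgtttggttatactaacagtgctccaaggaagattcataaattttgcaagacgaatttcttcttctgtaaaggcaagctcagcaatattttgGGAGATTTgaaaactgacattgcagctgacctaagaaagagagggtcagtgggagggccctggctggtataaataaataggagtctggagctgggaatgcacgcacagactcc
Ltb promoter: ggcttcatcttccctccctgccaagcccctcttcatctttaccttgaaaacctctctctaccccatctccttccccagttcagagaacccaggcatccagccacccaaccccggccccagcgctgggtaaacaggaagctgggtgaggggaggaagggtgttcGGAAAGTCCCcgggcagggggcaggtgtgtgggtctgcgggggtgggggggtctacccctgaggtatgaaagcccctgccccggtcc
Nfkb2 promoter: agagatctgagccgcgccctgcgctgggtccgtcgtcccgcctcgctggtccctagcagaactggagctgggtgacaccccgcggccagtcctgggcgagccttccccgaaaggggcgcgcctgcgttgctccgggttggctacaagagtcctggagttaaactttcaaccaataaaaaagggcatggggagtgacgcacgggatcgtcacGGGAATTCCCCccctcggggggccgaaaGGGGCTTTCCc

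The κB consensus, the general binding motif of NF-κB, matched the promoter of Ltb 87 to 78 bases before the start, as GGGACTTTCC on the minus strand. All 3 promoters of Nfkb2 held a match, and in the first of them GGGAATTCCC lay 39 to 30 bases and GGGGCTTTCC 11 to 2 bases before the start. No other member promoter held these letters in this window. Among all 32851 promoters in the table, 2382 (7.25%) held a match. The Cxcl13 promoter held the letters GGAGATTT 113 to 106 bases before the start, a match to GGAGANTT, where N is any base. That pattern was searched for the RelB and p52 pair and may be looser than the motif described for it. This second motif was added because of its known place in the Cxcl13 promoter, and 1312 promoters (3.99%) held it. A match is a description of the letters and not of binding, which was not measured.

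The signal of each spot is the scanner intensity after background subtraction, and a level is that signal divided by the 75th percentile of the array, 256 at 9 weeks and 198 at 24 months. By the scanner software's own mark, 55.4% (young) and 50.8% (aged) of the 59305 probe spots were well above background, and the lowest signals so marked were 14.1 and 14.3. A difference is the log2 level on the aged array minus that on the young array. Where a probe was well above background on 1 array alone, the brighter level was set against the higher of the dim probe's own level and the lowest level well above background on that array, which gives a limit of the difference. The error of a difference is that of the spot signals alone, as the scanner software estimates it, and does not include the spread between mice. For a gene with several probes, the brightest of those well above background on at least 1 array stood for the gene.

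Cxcl13 was the single member past 2-fold in either direction. The other members that could be measured lay between −0.58 and 0.29 on the log2 scale. Of the 9 members with a probe, 7 passed the filter on dim probes, 6 of them on both arrays, and Ccl19 and Lta were not well above background on either. Among the 21346 genes that passed the filter, 1637 (7.67%) passed 2-fold on the aged array, 539 (2.53%) upward and 1098 (5.14%) downward. Of the 7 members, 1 was at least 2-fold higher and 0 lower, a number too small to read against those shares. The median difference of the 6 members measured on both arrays was −0.37, with 4 negative and 2 positive. Over all 18745 genes measured on both arrays it was 0.09, with 40.1% negative.

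**Figure D1:**
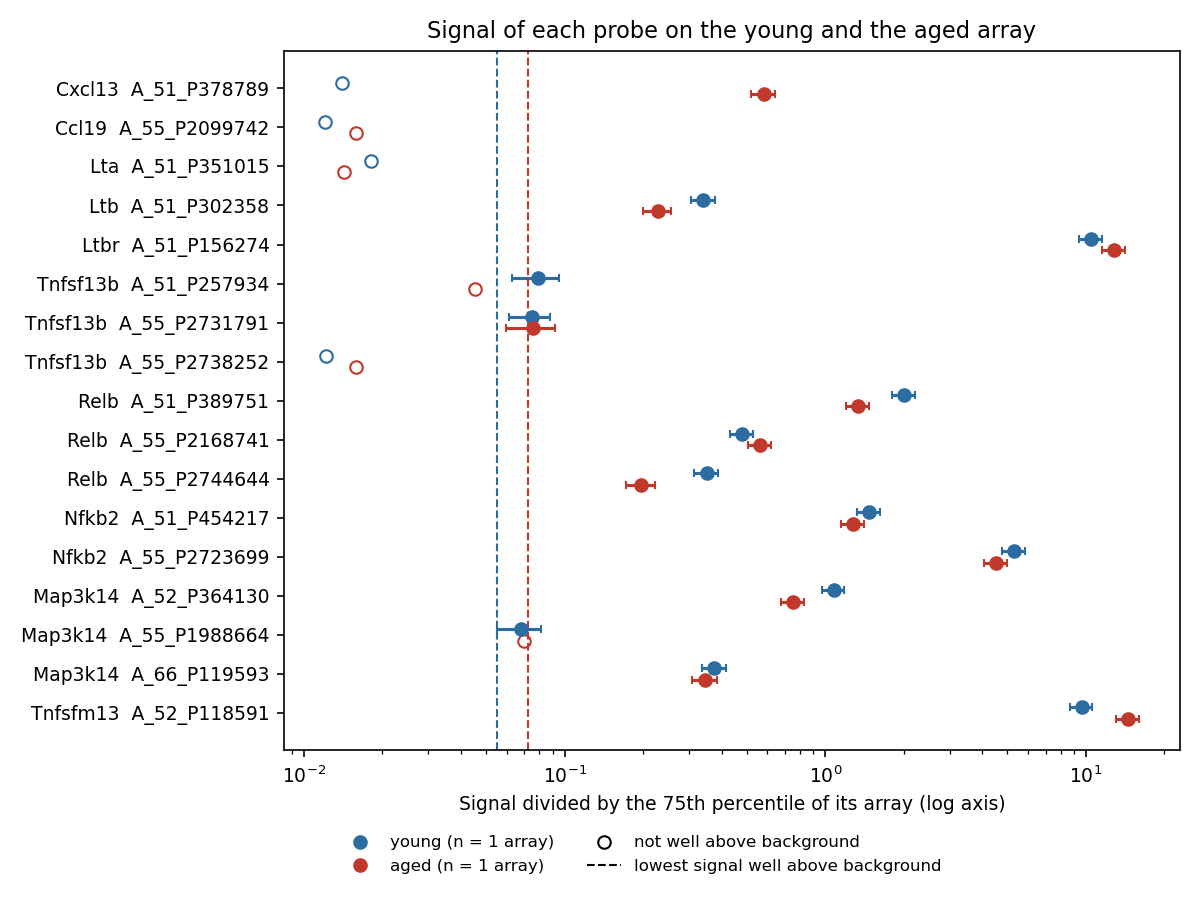
Level of each member probe on the young (blue) and the aged (red) array, as signal divided by the 75th percentile of its array on a log axis, with the scanner software's error as bars and the probe shared by Tnfsf13 and Tnfsfm13 in the last row. Open circles were not well above background and dashed lines show the lowest level that was. The Cxcl13 probe is open on the young array and far above the line on the aged array, while the brightest probe of each of the 3 NF-κB genes lies well above it on both. Positions of different probes are not comparable.

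Cxcl13, the chemokine that draws B cells into follicles, was measured by 1 probe at chr5:96389861-96389920 (plus strand, mm9, the build of all probe positions here). Its signal was 3.59 at 9 weeks, a substitute value that the software writes where no signal is measurable, and 115 with an error of 12.01 at 24 months. Before any correction, the spot's mean brightness was 34.4 at 9 weeks, under its local background of 48, and 144 at 24 months, over a local background of 46. The gene was thus detected on the aged array only, and the limit of its difference was 3.40, which is at least 10.6-fold higher. Among genes measured on both arrays, 20 had an increase larger than this limit. Among the 485 genes detected on the aged array alone, 26 had a larger limit. A limit is only a lower bound, so the rank of Cxcl13 among these genes cannot be told. The Cxcl13 limit was lowest, at 1.51, with normexp, a background correction that raises all dim values. It lay between 3.14 and 3.58 under the other scalings tried.

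Ccl19, which guides T cells and dendritic cells through the receptor CCR7, was at background on both arrays. The signal of its 1 probe was 3.08 at 9 weeks and 3.12 at 24 months, both substitute values, so that no difference can be given. The probe is placed at chr4:42250105-42250164 (plus strand), whereas the Ccl19 promoter read from RefSeq is on the minus strand. That position may therefore not be the one of Ccl19 itself. The probe lists 1 RefSeq and 3 Ensembl transcripts.

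**Figure D2:**
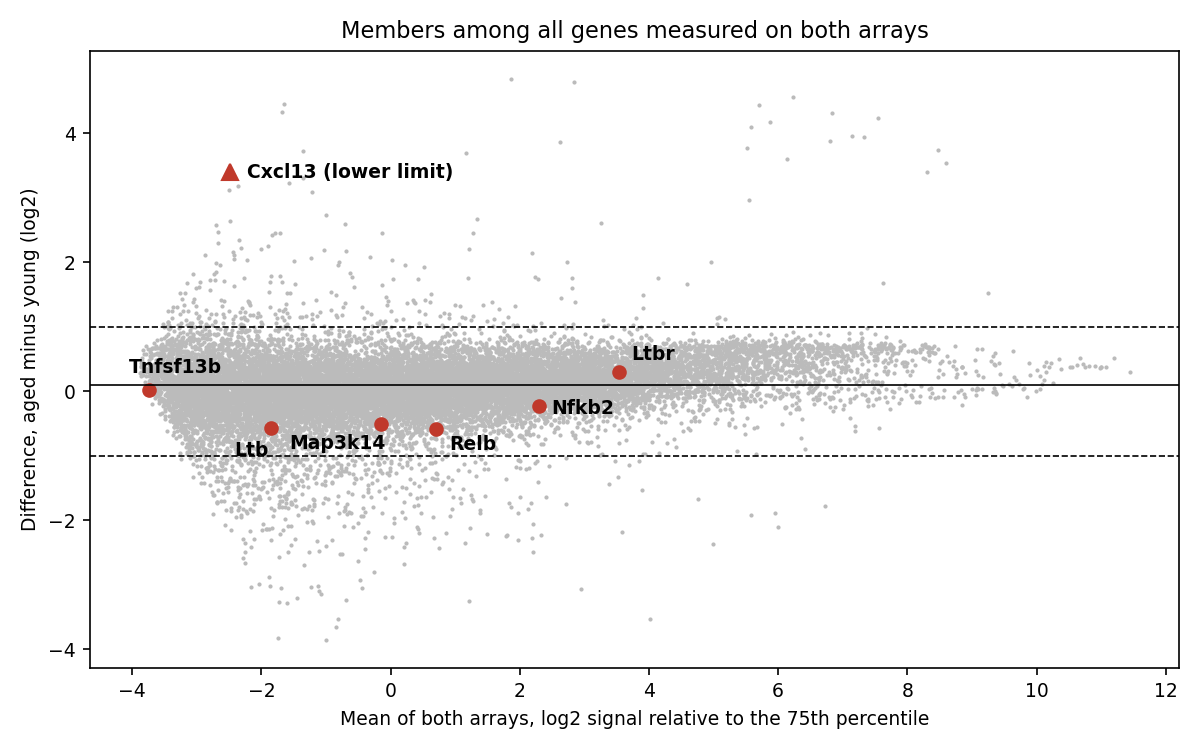
Difference between the ages (aged minus young, log2) against the mean log2 level of both arrays for the 18745 genes measured on both arrays (grey) and the members (red). The solid line is the median of all genes, 0.09, and the dashed lines mark 2-fold. Cxcl13 is drawn as a triangle at its limit, 3.40, with the young level set at the lowest level well above background, and the 6 other members lie inside the dashed lines.

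The lymphotoxin genes did not show a difference like that of Cxcl13. Ltb encodes lymphotoxin β, which anchors the lymphotoxin heterotrimer in the membrane of the cell that makes it. Its signal was 87.1 (error 9.21) at 9 weeks and 45.1 (error 5.41) at 24 months, a difference of −0.58 with an error of 0.23, or 1.49-fold lower on the aged array. Over 7 scalings it ran from −0.84 to −0.22 and stayed negative. Lta, whose product forms that heterotrimer with lymphotoxin β, was at background on both arrays, with signals of 4.61 and 2.82.

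Ltbr, the gene of the lymphotoxin β receptor, was well above background on both arrays. The signal was 2689 (error 269) at 9 weeks and 2542 (error 254) at 24 months. After scaling the difference was 0.29 with an error of 0.20, or 1.22-fold higher on the aged array. Its direction depends on the scaling, since it fell to −0.01 with loess and reached 0.47 with median centring, and relative to the median of all genes it ran from 0.04 to 0.20. The receptor of lymphotoxin was thus measured at both ages, and the lymphotoxin gene Lta at neither.

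On the chromosome, Ltb, Tnf and Lta are direct neighbours. Tnf, which encodes the inflammatory cytokine TNF and lies between the lymphotoxin genes, had a signal of 343 at 9 weeks and 99.0 at 24 months with its brighter probe, a difference of −1.42. Its other probe gave 183 and 105, a difference of −0.42. Both were lower on the aged array, as was Ltb, and Lta was not detected. Tnfrsf1a, the gene of TNF receptor 1 and a close neighbour of Ltbr, gave 4542 and 3842 with its brighter probe, a difference of 0.13, and 0.10 with its other probe.

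The BAFF gene was dim at both ages, and APRIL could not be measured apart from a fused transcript. Tnfsf13b, the BAFF gene, had 3 probes, all of them close to or under the limit of detection. The probe that stood for the gene, at chr8:10026129-10026188 (plus strand), gave 19.2 at 9 weeks and 14.99 at 24 months, a difference of 0.02 with an error of 0.40. It matches an Ensembl transcript only. The probe that matches RefSeq, at chr8:10035561-10035620 (plus strand), gave 20.3 at 9 weeks and 9.00 at 24 months, where it was not well above background, and the limit of its difference was −0.13. The probe at chr8:10022841-10022900 (plus strand) was at background on both arrays, with 3.12 and 3.15. These signals lay so close to the lowest signal well above background that a small difference in BAFF was not detectable.

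Tnfsf13 had no probe under its own name. A probe named for Tnfsfm13, the fused transcript of Tnfsf12 and Tnfsf13, lists transcripts of both genes and lies at chr11:69496657-69496716 (minus strand). Its signal was 2465 (error 247) at 9 weeks and 2877 (error 288) at 24 months, a difference of 0.59 with an error of 0.20, or 1.51-fold higher on the aged array. Signal from Tnfsf13 and from the fused transcript cannot be told apart here, and the probe was not counted as a member. Tnfsf12, which encodes TWEAK and supplies the other piece of the fusion, gave 119 and 103 with its own probe, a difference of 0.16.

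The 3 genes of the noncanonical pathway were well above background at both ages and had negative differences. Relb encodes the NF-κB subunit that pairs with p52, and its 3 probes did not give the same difference. They are shown because the direction turns on which of them is read.

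Probes of Relb, 60 bases, read 5′ to 3′:
Relb A_51_P389751: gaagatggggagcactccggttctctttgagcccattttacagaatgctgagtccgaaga
Relb A_55_P2744644: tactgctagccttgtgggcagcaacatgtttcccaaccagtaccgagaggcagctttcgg
Relb A_55_P2168741: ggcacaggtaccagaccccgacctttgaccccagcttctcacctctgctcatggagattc

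Relb probe A_51_P389751, at chr7:20191722-20191781 (minus strand), stood for the gene and gave 512 at 9 weeks and 264 at 24 months, a difference of −0.58 with an error of 0.20, or 1.499-fold lower. Probe A_55_P2744644, at chr7:20191939-20191998 (minus strand), gave 89.7 and 39.0, a difference of −0.83 with an error of 0.24. Probe A_55_P2168741, at chr7:20203058-20203117 (minus strand), gave 123 and 111, a difference of 0.23 with an error of 0.21. The probes with negative differences list RefSeq transcripts, and A_55_P2168741 lists an Ensembl transcript only. Over 7 scalings the difference of the probe that stood for the gene ran from −0.84 to −0.41.

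Nfkb2 encodes p100, the precursor of p52. Its 2 probes gave close differences. The brighter, at chr19:46386440-46386499 (plus strand), gave 1355 at 9 weeks and 896 at 24 months, a difference of −0.23 with an error of 0.20. The other, at chr19:46386146-46386285 (plus strand, with a match that spans 140 bases), gave 377 and 253, a difference of −0.20 with an error of 0.21. The difference is about as large as the error of the spots. It stayed negative over 7 scalings, from −0.48 to −0.05.

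Map3k14 encodes NIK, the kinase at the head of the pathway, and is the gene mutated in alymphoplasia (aly) mice, which were not measured on these arrays. The brightest of its 3 probes, at chr11:103081249-103081308 (minus strand), gave 276 at 9 weeks and 149 at 24 months, a difference of −0.51 with an error of 0.21, or 1.43-fold lower. The probe at chr11:103098461-103098520 (minus strand) gave 96.2 and 68.4, a difference of −0.12 with an error of 0.22. The probe at chr11:103101069-103101128 (minus strand) was well above background on the young array alone, with 17.4 and 13.8, and allowed no limit. NIK is regulated largely by its stability as a protein, which arrays do not measure.

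**Figure D3:**
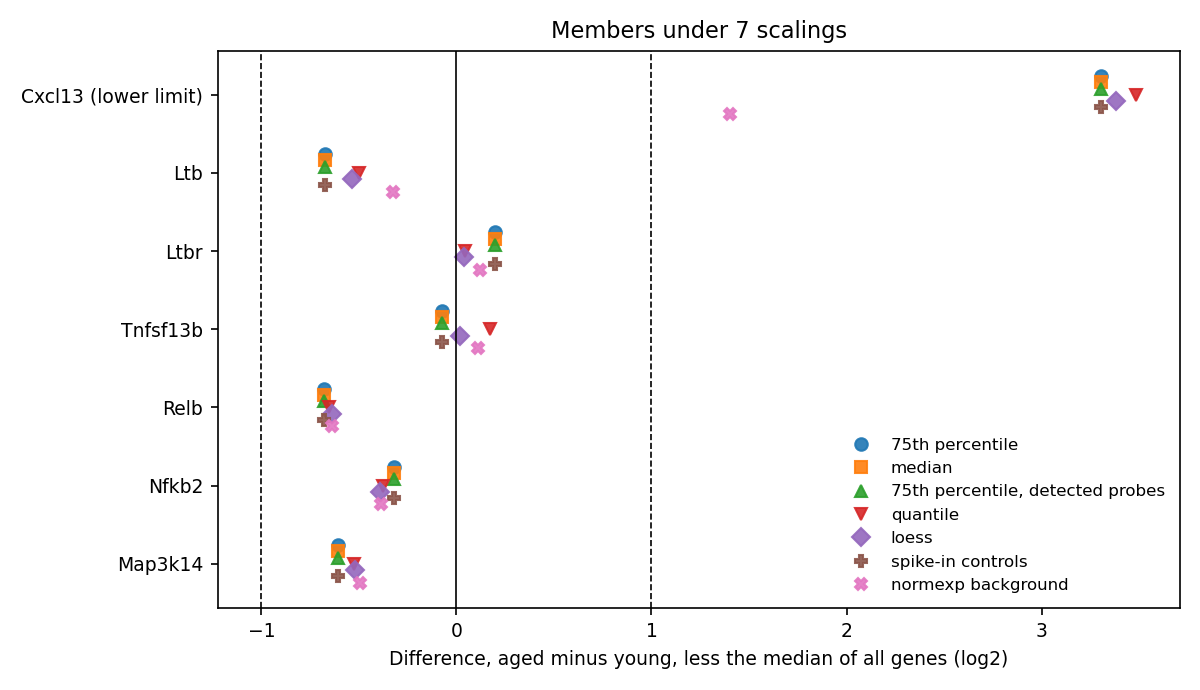
Difference of each measured member (aged minus young, log2) less the median difference of all genes, under 7 scalings of the arrays. Dashed lines mark 2-fold and the solid line the median of all genes. Cxcl13 lies right of 2-fold under all 7, from 1.40 to 3.48, Ltb, Relb, Nfkb2 and Map3k14 lie left of the solid line under all 7, and Tnfsf13b falls on both sides of it.

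Relative to the median of all genes, the probes that stood for the NF-κB members kept one direction under the 7 scalings. The ranges below leave out the spread between probes of a gene, given above. Relb lay between −0.68 and −0.64, Map3k14 between −0.61 and −0.49, and Nfkb2 between −0.39 and −0.32. Ltb lay between −0.67 and −0.32, and Tnfsf13b between −0.08 and 0.17. Counted over probes, 7 of the 10 member probes measured on both arrays had negative differences and 3 had positive ones.

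Around the members, 41 genes were listed as receptors, other TNF family inputs, kinases and adaptors at NIK, canonical NF-κB genes, and chemokines and adhesion molecules of lymphoid stroma. All 41 were on the array and 33 passed the filter. Of the 33, 0 passed 2-fold upward and 6 passed it downward, which is 18.2% against 5.14% of all genes. The lists were drawn up with earlier results of these data known, and the share is a description. The median difference of the 30 measured on both arrays was −0.05, with 18 negative and 12 positive. The 6 were Ccr7, Ccl21a, Tnf, Rel, Nfkbie and Tnfaip3.

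**Figure D4:**
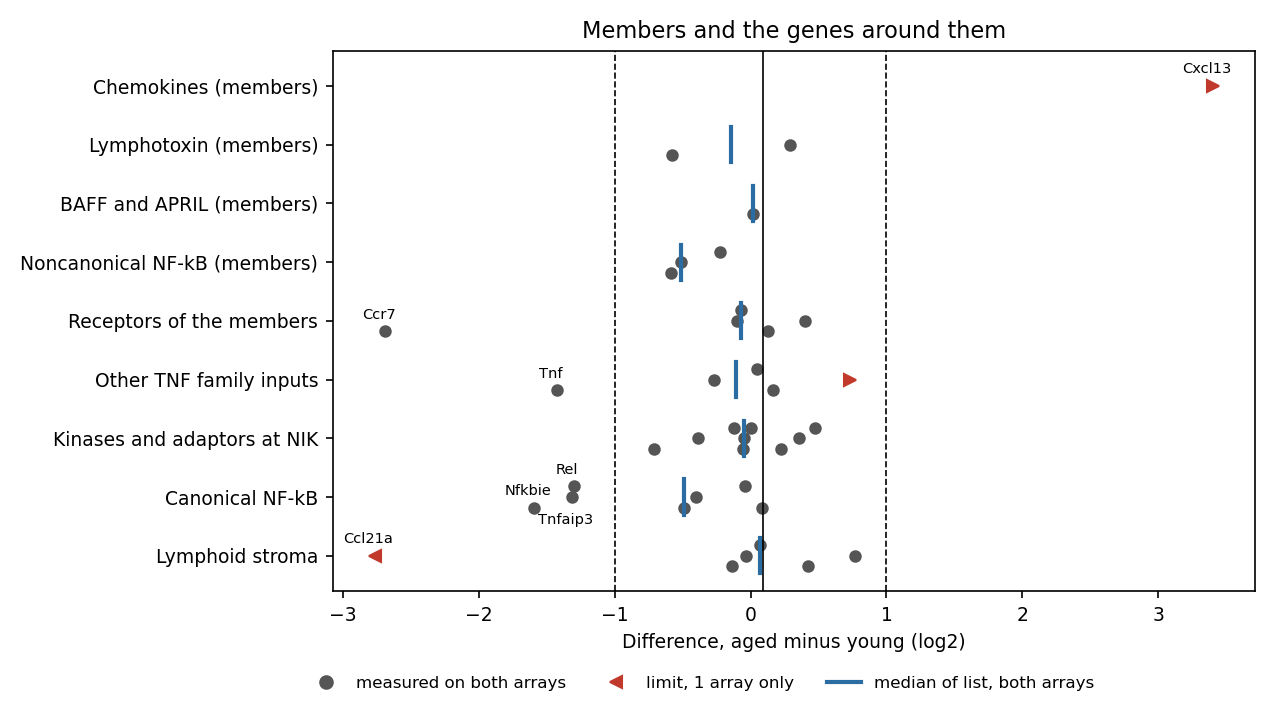
Difference between the ages (aged minus young, log2) for each gene of the member groups and of 5 lists of genes around them. Dots are genes measured on both arrays, triangles are limits for genes detected on 1 array, blue bars are list medians, the solid line is the median of all genes and the dashed lines mark 2-fold. Cxcl13 alone lies right of the dashed lines, and the 6 named genes at the left lie beyond 2-fold lower.

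Among the receptors, Cxcr5, the receptor of CXCL13, was at background on both arrays, with signals of 2.79 and 2.80. Ccr7, the receptor of CCL19 and CCL21, gave 749 at 9 weeks and 89.9 at 24 months, a difference of −2.69, or 6.44-fold lower. Its second probe was detected on the young array alone, with a limit of −2.60. Over the 12 settings the Ccr7 difference ran from −2.95 to −2.16. CCR7 is carried mainly by lymphocytes and by migrating dendritic cells, whose markers are given below.

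Of the BAFF and APRIL receptors, Tnfrsf13c (BAFF receptor) and Tnfrsf17 (BCMA) were at background on both arrays. Tnfrsf13b (TACI) gave 81.8 and 59.1 with the probe that stood for it, a difference of −0.10, and 89.9 and 19.7 with another, a difference of −1.82. Tnfrsf1b, the gene of TNF receptor 2, gave 187 and 191, a difference of 0.40, while its second probe gave −1.01. Tnfrsf14, the gene of the receptor HVEM, gave 36.8 and 27.1, a difference of −0.07. A further probe each of Tnfrsf13b and Tnfrsf14 was at background on both arrays. The probes of TACI and TNF receptor 2 thus disagreed on whether the difference passed 2-fold.

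Ccl21a, the second CCR7 ligand and a neighbour of Ccl19, had a signal of 125 at 9 weeks and 12.2 at 24 months, where it was not well above background. The limit of its difference was −2.76, or at least 6.79-fold lower with age. Its probe lists 4 RefSeq transcripts and may read near-identical copies of the gene. Among the chemokine genes named above as driven by noncanonical NF-κB, Cxcl13 was therefore detected on the aged array alone. Ccl21a was detected on the young array alone, and Ccl19 on neither. Cxcl12, a chemokine of stroma, was measured on both arrays and gave 352 and 266, a difference of −0.03.

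The canonical NF-κB list had 3 of its 7 genes at least 2-fold lower with age and 6 of 7 with negative differences, and its median was −0.49. Tnfaip3, which encodes the inhibitor A20, gave 1006 and 313, a difference of −1.31. Nfkbie, an inhibitor of the IκB family, gave 173 and 44.3, a difference of −1.59. Rel, a subunit most used in lymphocytes, gave 397 and 124, a difference of −1.30, while its second probe was detected on the young array alone with a limit of −0.80, short of 2-fold. Nfkb1 had a difference of −0.49, and Rela, the main partner of its product, −0.04, which is smaller than the shifts between scalings. The median of the list ran from −0.79 to −0.31 over 7 scalings. Of the 9 kinases, adaptors and inhibitors around NIK, 0 passed 2-fold, and their differences ran from −0.71 for Btrc to 0.47 for Ikbkg. Chuk, the gene of IKKα, gave −0.05 and Traf3, which leads NIK to its degradation, −0.06.

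Cells other than epithelial cells may pass a bead selection, so marker lists were read beside these values. All 7 epithelial markers were detected at 9 weeks and 6 at 24 months, when Krt19 was not well above background (limit −0.89). The median of the 6 was 0.13, and Epcam gave 1778 and 1573, a difference of 0.20. Of 8 markers of macrophages and dendritic cells, all 8 were measured on both arrays, all 8 had negative differences with a median of −0.88, and 4 were at least 2-fold lower. The smallest was Itgam at −0.05, whose sign turns with median centring, and the list median ran from −1.13 to −0.70 over 7 scalings. The 4 were Lyz2 at −1.91, Itgax at −1.64, Adgre1 at −1.36 and Cd68 at −1.06. A second Itgax probe measured on both arrays gave 0.42, the opposite direction. Ptprc in this list is a gene of leukocytes in general, and its probes measured on both arrays ran from −1.53 to −0.09. The summed level of that list was 195 at 9 weeks and 106 at 24 months, and 102 and 81.3 without Lyz2, its brightest gene. Such a sum adds different probes and is carried by the brightest of them. Of 7 fibroblast markers, 5 were measured on both arrays, and Pdgfra and Pdgfrb were well above background on the young array alone. Pdgfrb, with 16.7 and 15.9, allowed no limit. The summed level of the fibroblast list was 18.7 and 8.78 (5.13 and 1.91 without Dcn). In it, 4 were at least 2-fold lower, namely Col1a1 at −1.81, Col3a1 at −1.73, Col1a2 at −1.44 and Pdgfra at a limit of −1.29. In RNA from a mixed preparation, fewer cells of a type and less RNA per cell cannot be told apart.

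Of the 7 B cell markers reported, 5 were detected, and Cd79a and Blk were at background on both arrays. Cd79b gave 146 and 25.5, a difference of −2.14. The summed level of these B cell markers was 2.64 at 9 weeks and 1.96 at 24 months. Without Cd22 and Cd79b, which carried the sum, it was 0.798 and 0.737. The 4 measured on both arrays had a median of −0.29, with 3 negative differences and Pax5 positive at 0.17. Cd22, at −0.22, rests on 1 probe, and its other probes were at background on both arrays. Ms4a1 was detected on the young array alone, with a limit of −0.96. The T cell list had a median of 0.05 and summed to 11.0 and 12.8, but to 0.883 and 0.538 without Cd4 and Cd3e, which carried the sum. The other Cd4 probes, with 3.37 and 3.40 and with 7.07 and 3.17, were at background on both arrays. The list had Cd2 at −1.28 and Cd3g at a limit of −1.04 past 2-fold and Cd8a and Cd5 at background on both arrays. Of the 4 plasma cell markers measured on both arrays, 3 had negative differences, and their median was −0.14. The list summed to 65.9 and 78.4, but to 3.33 and 1.39 without Derl3, which carried nearly all of the sum. The list had Jchain at −1.78 and Irf4 at a limit of −1.61 past 2-fold and Mzb1 at background on both arrays. The endothelial list summed to 3.89 and 2.71, and 0 of its 5 genes passed 2-fold.

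Follicular dendritic cells and lymphoid stroma are the main sources of CXCL13 in lymphoid organs. Of 7 markers of these cells all were detected on at least 1 array, and 2 were at least 2-fold lower, Fcgr2b at −1.68 and Ccl21a. Cr2, the gene of complement receptor 2, gave 177 and 135 with its brightest probe, a difference of −0.02. Another Cr2 probe was detected on the young array alone, with 21.2 and 10.6 and a limit of −0.20. A further one was at background on both arrays, with 3.53 and 3.45. The list of these markers had a median of 0.07. The list summed to 26.8 and 28.5, but to 3.86 and 2.97 without Clu and Mfge8, which carried the sum. The part of macrophages, fibroblasts, lymphocytes or follicular dendritic cells in the values of Cxcl13, Ltb, Relb, Tnf, Ccr7 and Ccl21a was not tested.

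**Figure D5:**
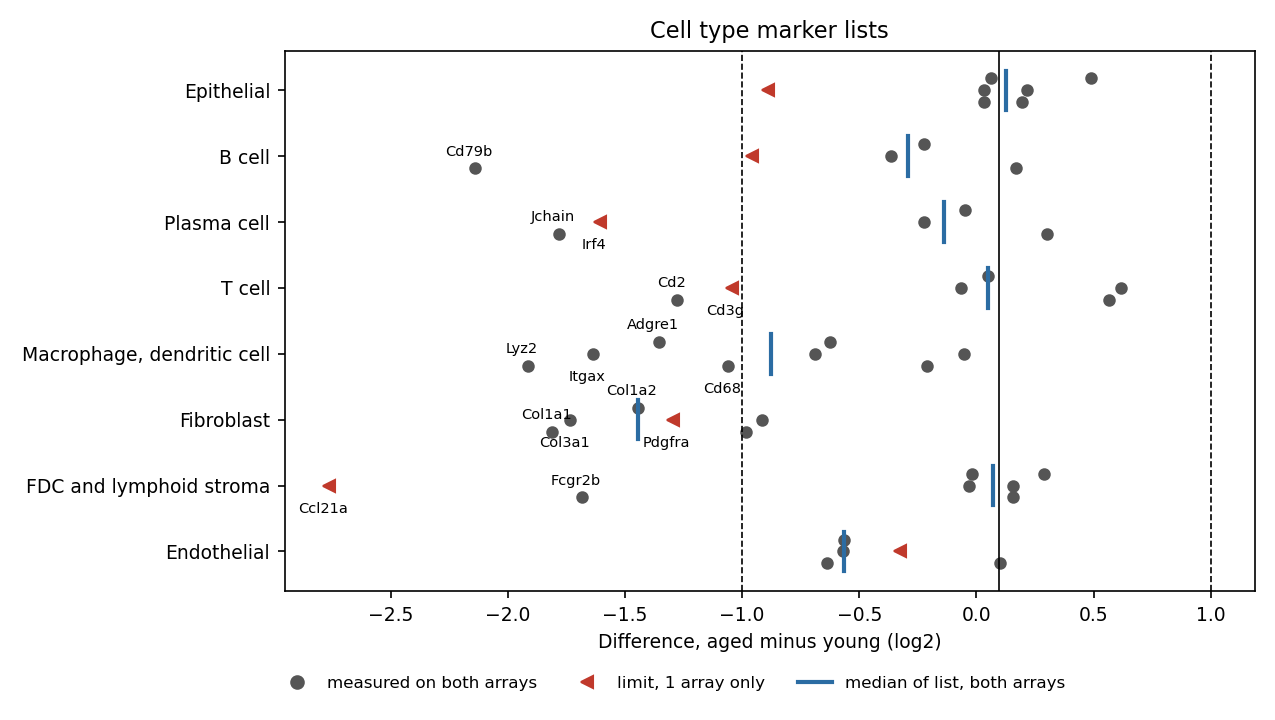
Difference between the ages (aged minus young, log2) for the genes of 8 cell type marker lists, with dots for genes measured on both arrays, triangles for limits, blue bars for list medians, a solid line for the median of all genes and dashed lines for 2-fold. The 6 epithelial markers measured on both arrays lie between 0.03 and 0.49 and Krt19 at a limit of −0.89, and all 8 macrophage and dendritic cell markers lie left of the solid line.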

How the data were processed

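The authors labelled RNA with Cy3 and hybridised it to an Agilent SurePrint G3 8 × 60K mouse array per age. The deposited scanner files were made with Agilent Feature Extraction 12.0.3.1, named in the submitters' processing notes, and give, per the file headers, the intensity of each spot after background subtraction and trend correction within the array, with no scaling between arrays. The authors' GeneSpring table holds the same signal divided by 1 constant per array (229 young, 176 aged, all 59305 spots within 0.1%), on a linear scale and not centred, with a median value of 0.113 and 0.100.

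From the scanner intensities, log2 of the signal less log2 of the array's 75th percentile was taken. Outlier spots (90 young, 93 aged) were left out on both arrays, 0 spots were saturated, and repeated spots were averaged. A probe had to be well above background at 1 age or both. The 2-fold threshold follows the methods. Of 56605 probes, 33767 were named from the RefSeq accession in the files (877 changed) and the others kept the file's name. Probe coordinates are those of the files (NCBI37, mm9), RefSeq promoters are on GRCm38.p6, and the place of a probe in exons was not analysed here. For 293 probes with many repeated spots, all well above background on both arrays, the median SD of the difference was 0.034. That value leaves out all spread between mice and does not describe dim probes. The number of arrays limits the precision.

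All members were named with all their probes, the receptors and any pathway list gene past 2-fold were named, and marker lists were given by counts and summed level with the genes past 2-fold. Other genes named were chosen for their roles. A marker of the B cell list is not reported here. The members and lists were chosen with earlier results of these data known. The 11 alternatives were 6 scalings (median centring, the 75th percentile over probes detected on both arrays, quantile, loess with span 0.7 and 3 iterations, spike-in controls, and normexp with offset 50), 2 filters on dim probes, outlier spots kept, the mean of a gene's probes, and the authors' table. R 4.3.3 with limma 3.58.1, Python 3.11.15, numpy 2.4.6, pandas 2.3.3 and matplotlib 3.10.9 were used, and the steps were tested on simulated data.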

Additional observations from a re-analysis of the deposited data

How the results depend on the processing

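Cxcl13 stayed at least 2-fold higher under the 10 alternatives that gave it a value. With probes well above background on both arrays only, it was not measured, and the members at least 2-fold higher numbered 0 in place of 1. No member was at least 2-fold lower under any of the 11 alternatives. The direction of Ltbr turned with loess (−0.01), and that of Tnfsf13b with the 75th percentile over probes detected on both arrays (−0.09), loess (−0.03), spike-in controls (−0.24) and the mean of its probes (−0.39), all well inside 2-fold. Of all genes, those at least 2-fold higher numbered 539 and those lower 1098. With no filter on dim probes these were 1685 and 2416, with normexp 182 and 297, and with probes measured on both arrays only 285 and 571. Scaling to the spike-in controls shifted the median of all genes by −0.26 and gave 348 higher and 1619 lower, so that 17.7% of calls were higher in place of 32.9%, while median centring shifted it by 0.17 and gave 802 and 867, or 48.1% higher. The pathway genes at least 2-fold lower numbered 6, and 5 to 9 over the alternatives. Of those 6, Tnf and Nfkbie passed 2-fold in 11 of 12 settings, and Ccr7, Rel and Tnfaip3 in all 12, while Ccl21a passed in the 11 that gave a value. Cd79b, Irf4, Cd2, Cd68, Pdgfra, Col1a1 and Fcgr2b passed in 6 of 7 scalings and Cd3g in 4. The causes were not tested. No paired analysis was possible because each age has 1 array. Signals near the lowest mark of detection, as for Tnfsf13b, limit what can be read for BAFF.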
